A study of Mus musculus with 138 samples.

Results

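The parietal bone of the mouse skull grows at its edges, and 2 of these edges are compared here at E18.5, shortly before birth: the parietal osteogenic front (OF) at the sagittal suture and the parietal OF at the lambdoid suture. The members are the laser-captured RNA-seq libraries whose labels give stage E18.5 and the region parietal OF, with 5 libraries at the sagittal suture and 5 at the lambdoid suture, 10 of the 138 samples of the series. The series covers the suture mesenchyme (SM) and the OFs of 4 calvarial sutures (coronal, frontal, lambdoid, sagittal) at E16.5 and E18.5, with 5 embryos per group. All animals were wild-type C57BL/6J embryos without treatment. For both groups the tissue was cut from sections by laser-capture microdissection, and its RNA was amplified before Nextera XT libraries were made. Each of the 10 libraries came from a separate embryo, and no embryo gave both edges. Sagittal replicates 1 to 3 shared 1 litter, sagittal replicates 4 and 5 shared another, and the lambdoid embryos came from 4 litters, of which 1 (lambdoid replicate 5) also gave sagittal replicates 1 to 3. A further 16 libraries, labelled as controls for normalization, hold complete sutures at E18.5 in 4 sets named C, IF, L and S, each with 1 complete coronal, frontal, lambdoid and sagittal suture. The letters S and L also stand in the names of the sagittal and the lambdoid front libraries. The labels do not say in words what the letters mean or whether the control libraries of a suture came from separate embryos.

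The OF is the leading edge of a calvarial bone, where dividing precursor cells become osteoblasts and lay down bone by the intramembranous route. The sagittal suture lies in the midline between the paired parietal bones. The lambdoid suture lies between the parietal and the interparietal bones, in a region where cartilage and neck muscle are near, so that the same bone faces different neighbours at its 2 edges. Bone matrix genes such as Spp1 (osteopontin) and Bglap (osteocalcin) mark maturing osteoblasts, and hedgehog, IGF, ephrin, FGF, Wnt, BMP and TGF-beta signals are known to act in the front.

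The sagittal front libraries were deeper than the lambdoid front libraries, with 14359519 to 16871945 counts on genes against 8706271 to 10439953. The complete-suture libraries differed in the same way, with 14088921 to 14952534 counts in set S and 9534171 to 10275328 in set L. Levels are given in CPM, the counts scaled to a common library size after TMM scaling. Differences are log2 fold changes ± standard error (SE) of edgeR's quasi-likelihood test, positive when higher at the sagittal edge, and a gene is called when its Benjamini-Hochberg adjusted p is under 0.05. In bulk tissue, fewer cells of a type and less RNA per cell cannot be told apart.

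Both groups carried the genes that define osteoblasts. All 10 osteoblast markers were detected in both groups, and their summed level was 45207 to 62284 CPM in the sagittal and 32412 to 40143 CPM in the lambdoid fronts, against 13512 to 22357 CPM in complete sagittal and 15369 to 27355 CPM in complete lambdoid sutures. This sum also differed between the control sets, at 13035 to 42390 CPM (median 24856) in set S and 8944 to 24973 CPM (median 14441) in set L. Markers of SM summed to 1334 to 1683 CPM in the sagittal and to 1887 to 2145 CPM in the lambdoid fronts, 10 of 10 detected in each. The 12 chondrocyte markers summed to 97.1 to 129 CPM and 120 to 155 CPM, and the 12 tested skeletal muscle markers to 13.4 to 23.7 CPM and 15.8 to 64.0 CPM. In the sagittal fronts the cartilage gene Snorc and the muscle gene Actc1 were at 0 in every library. The part of these other cell types in the differences given here was not tested.

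Sagittal replicates 1 to 3 stood apart from sagittal replicates 4 and 5 by transcripts of brain and blood. Dcx, a microtubule protein of young neurons, was at 57.5, 18.49 and 41.3 CPM in sagittal replicates 1 to 3, at 0 and 0.269 CPM in replicates 4 and 5, and at 0 to 2.48 CPM in the lambdoid fronts. Fabp7, a marker of radial glia, was at 9.73, 25.1 and 8.06 CPM in replicates 1 to 3 and at no more than 0.642 CPM in the other 7 fronts. The summed neuron and brain markers (11 of 12 tested) were 261, 163, 216, 85.8 and 93.7 CPM in sagittal replicates 1 to 5 and 86.5 to 128 CPM in the lambdoid fronts. Only the 3 libraries of 1 litter were high, and lambdoid replicate 5 of the same litter held 120 CPM. Haemoglobin and other erythroid transcripts summed to 2025, 3363, 5953, 200 and 179 CPM in sagittal replicates 1 to 5 and to 264, 317, 999, 335 and 2564 CPM in lambdoid replicates 1 to 5. Of 11 tested brain markers, 4 were called higher and 1 lower between the edges, beside 9.6% and 6.32% of all genes. Dcx, Fabp7 and Myt1l, a neuronal transcription factor, were called higher between the edges but not after correction, and they turned sign on leaving sagittal replicates 1 to 3 out, from 5.20, 4.88 and 5.27 to -2.20, -2.03 and -1.86 on the log2 scale. They are not described further as differences between the edges. The other differences were also fitted without these 3 libraries. Calls that were then lost are named for many genes but not for every list member. A gene without such a remark need not have kept its call.

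**Figure D1:**
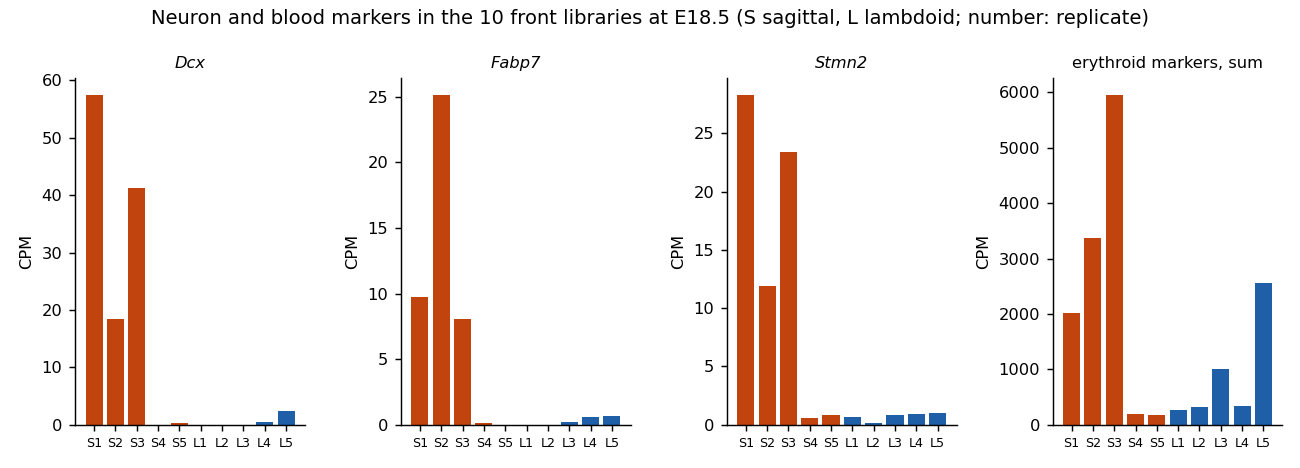
CPM of the neuronal or glial genes Dcx, Fabp7 and Stmn2 and the summed CPM of erythroid markers in each of the 10 parietal front libraries at E18.5, 1 bar per library. The brain genes are high in sagittal replicates 1 to 3 and near 0 in sagittal replicates 4 and 5 and in the lambdoid fronts.

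The 2 edges of the bone differed widely before any correction. Of 19965 genes tested, 3177 (15.9%) were called, 1916 higher (9.6%) and 1261 lower (6.32%) at the sagittal edge, and 5401 had an unadjusted p under 0.05. In 3788 genes (19% of those tested) the libraries of the groups did not overlap, and 2595 of the called genes were among them. Without sagittal replicates 1 to 3, 1884 genes (9.44%) were called, 1354 higher (6.78%) and 530 lower (2.65%), which included 1793 of the 3177, and 3158 of the 3177 kept their sign. This fit reuses the other libraries, and in the 2595 genes without overlap the mean difference could not turn its sign. Kept signs are therefore not separate support. Between sagittal replicates 1 to 3 and lambdoid replicates 3 to 5, whose litter labels begin alike, 3152 genes (15.8%) were called, 2329 of them among the 3177.

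Complete sutures of the control sets S and L, which hold the same 4 sutures, differed from each other in many of the same directions. With suture held equal, 1168 genes (5.85%) were called between set S and set L, 904 higher (4.53%) and 264 lower (1.32%) in set S. The size of the offset depended on the fit, with 3257 genes (16.3%) called in the 10 fronts and 8 controls of these sets by themselves, and 6450 (32.3%), 3512 higher and 2938 lower, in the 16 controls by themselves. Of the 3177 genes called between the fronts, 996 were also called with the same sign between the control sets and 0 with the opposite sign. Across all 19965 genes, which are not independent, the front difference and the control set offset had a Pearson correlation of 0.518. After the offset was subtracted, 2683 of the 3177 genes (84.5%) kept their sign, beside 14027 of all 19965 genes, and 494 turned it. The corrected difference contains the front difference, so part of this agreement is built in. In 2131 of the 3177 (67.1%) the corrected difference was at most 0.5 times the front difference or of the other sign. The median of the called higher genes went from 1.10 to 0.30 on the log2 scale and that of the called lower genes from -0.70 to -0.32.

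**Figure D2:**
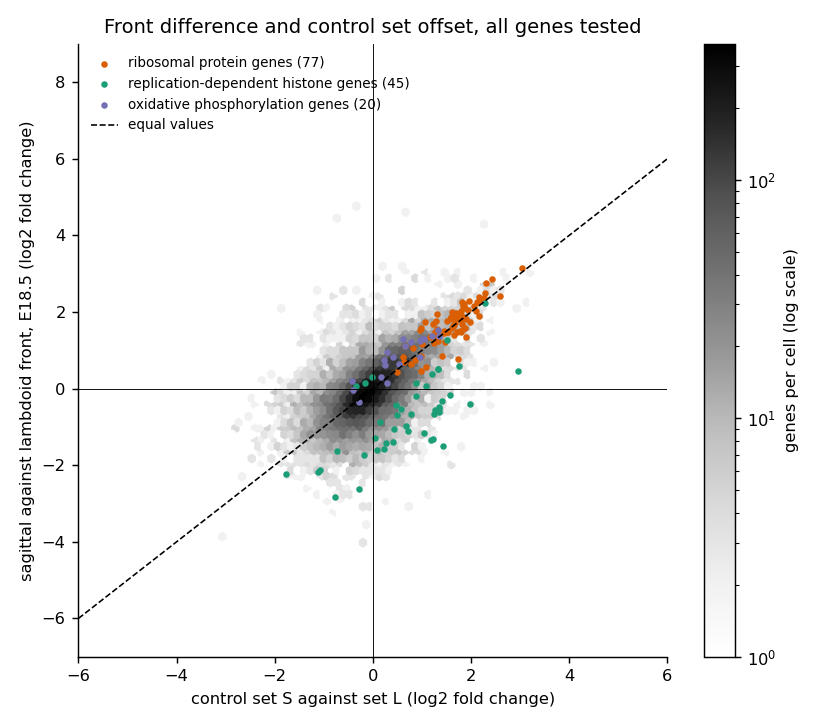
Log2 fold change between sagittal and lambdoid parietal fronts at E18.5 (vertical axis) against the log2 offset between control sets S and L (horizontal axis) for 19965 genes, shaded by number of genes, with ribosomal protein, histone and oxidative phosphorylation genes as points. The ribosomal protein genes lie along the dashed line of equal values, far from 0 on both axes, whereas most histone genes lie below it.

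In the fit to all 116 libraries, none of the 19965 genes (0%) was called by edgeR after the offset was subtracted, with 756 at an unadjusted p under 0.05. DESeq2 called 13 genes and limma-voom 3 genes in the same design. The offset rests on 4 complete sutures in each set, and the spread per gene in that fit is set by all sutures and ages. When the 10 fronts and the 8 controls of sets L and S were fitted by themselves, edgeR called 74 genes (0.371%) after the offset, 17 higher (0.0851%) and 57 lower (0.285%) at the sagittal edge. Without sagittal replicates 1 to 3, this fit called 532 genes (2.66%), 221 higher (1.11%) and 311 lower (1.56%), 70 of the 74 among them, and all 74 kept their sign. The reduced fit reuses the same libraries, so kept calls and signs are not separate support. The fit to 18 libraries was set as an alternative to the fit of all libraries, and single-gene p-values after the offset are taken from it below and named so. Edge, litter and the making of the libraries cannot be told apart beyond what the control sets measure.

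The largest group that was higher at the sagittal edge before correction was the ribosomal protein genes, the protein part of the translation machinery. Of 77 tested, 74 were called higher and 0 lower, beside 9.6% and 6.32% of all genes, and the groups did not overlap in 74, beside 19% of all genes. Their median difference was 1.69 on the log2 scale, against -0.07 over all genes tested. Complete sutures of set S exceeded those of set L by a median of 1.65 for the same genes, and 0.08 remained after the offset. Rps29 was at 223, 550, 233, 271 and 274 CPM in the sagittal and at 36.9, 32.7, 61.6, 21.4 and 20.5 CPM in the lambdoid fronts. Its front difference was 3.16 ± 0.25 (adjusted p = 1.89e-19, edgeR), 8.96-fold, and the control offset was 3.05. Lgals1 (galectin-1) was called higher between the fronts, at 1.89, with a control offset of 2.01. The ribosomal list was chosen after these values had been seen.

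Genes of oxidative phosphorylation encode the mitochondrial respiratory chain and ATP synthase. Of 20 tested, 14 were called higher and 0 lower before correction, beside 9.6% and 6.32% of all genes, with a median of 0.90 before and 0.30 after the offset. After the offset 0 were called in the 18-library fit, in which 0.371% of all genes were. Without sagittal replicates 1 to 3 that fit called 3 higher and 0 lower, beside 1.11% and 1.56% of all genes. Cox4i1, a subunit of cytochrome oxidase, was at 203.4, 220.3, 218.9, 189.6 and 201.3 CPM in the sagittal and at 92.3, 97.1, 75.4, 37.9 and 56.7 CPM in the lambdoid fronts, a difference of 1.52 ± 0.21 that stood beside a control offset of 1.33. Of 25 glycolysis and hypoxia genes 6 were called higher and 0 lower, beside the same shares of all genes, with a median of 0.41 before and 0.09 after the offset. Hk2, a hexokinase that commits glucose to glycolysis, was at 89.1, 145, 94.2, 205 and 190 CPM at the sagittal edge and at 63.4, 60.2, 48.7, 42.8 and 42.8 CPM at the lambdoid edge. The groups of Hk2 did not overlap, the difference was 1.49 ± 0.21 (adjusted p = 3.83e-08, edgeR), and 0.79 remained after the offset (adjusted p = 0.25 in the 18-library fit).

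Of 30 cell cycle genes tested, 9 were called higher and 1 lower, beside 9.6% and 6.32% of all genes, with a median of 0.20 before and 0.13 after the offset. Birc5, an inhibitor of apoptosis needed for chromosome segregation, was at 58.0 to 94.6 CPM in the sagittal and at 28.2 to 34.2 CPM in the lambdoid fronts, a difference of 1.29 ± 0.23 with a control offset of 0.94. Mki67, present in cycling cells, was at 781 to 1121 CPM against 640 to 672 CPM (0.55 ± 0.20, adjusted p = 0.0479), and its call was lost without sagittal replicates 1 to 3 (adjusted p = 0.0703), where the difference was 0.71, and on leaving out any 1 library other than sagittal replicate 3 (adjusted p = 0.0613 to 0.118). Plk1, a mitotic kinase, went the other way, at 14.6 to 22.6 CPM against 35.1 to 47.7 CPM (-1.05 ± 0.24, adjusted p = 0.000731), with a control offset of -0.12. None of the 30 was called after the offset in the 18-library fit, but without sagittal replicates 1 to 3 that fit called 4 higher and 1 lower, with a median of 0.34, beside 1.11% and 1.56% of all genes.

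Replication-dependent histone genes code for the core histones made during S phase. Of 45 tested, 10 were called lower at the sagittal edge, 2 were called higher and 33 were not called before correction, beside 6.32% lower and 9.6% higher of all genes. After the offset in the 18-library fit 6 were called lower and 0 higher, beside 0.285% and 0.0851% of all genes. The median control offset of the list was 0.78, and the median difference was -0.66 before and -1.49 after the offset. Hist1h4d was at 21.4, 57.0, 76.7, 31.4 and 27.1 CPM in the sagittal and at 118.4, 140.9, 170.6, 100.6 and 103.4 CPM in the lambdoid fronts. It differed by -1.57 ± 0.35 (adjusted p = 0.000386) and by -1.76 after the offset (adjusted p = 0.0278 in the 18-library fit). Hist1h4j had the lowest front difference of the 45, -2.82, but was not called after the offset (-2.03, adjusted p = 0.277 in the 18-library fit). Between the libraries whose litter labels begin alike, 4 were called lower and 5 higher, with a median of -0.27, where 15.8% of all genes were called. At E16.5, 15 of the 45 were called lower and 0 higher, beside 6.55% and 7.04% of all genes. Histone transcripts mostly lack a poly(A) tail and many members are near-identical, so single members are uncertain. This list, too, was chosen after its values had been seen.

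The calls among genes of cholesterol synthesis changed with the libraries fitted. Of 18 tested, 6 were called lower and 0 higher, beside 6.32% and 9.6% of all genes, with a median of -0.55 and a control offset near 0 (median -0.01). Nsdhl, a sterol dehydrogenase of the pathway, was at 15.68, 12.76, 9.353, 13.28 and 14.01 CPM at the sagittal edge and at 41.01, 21.71, 21.83, 37.41 and 20.91 CPM at the lambdoid edge. Its groups did not overlap, and the difference was -1.13 ± 0.28 (adjusted p = 0.00184). On leaving out sagittal replicates 1 to 3, 0 of the 18 were called lower, 1 was called higher and the median was -0.30, where 2.65% of all genes were called lower and 6.78% higher. Fewer sagittal libraries and dependence on these 3 cannot be told apart in that fit. Between the libraries whose litter labels begin alike, 9 were called lower and 0 higher, beside 945 and 2207 of all genes. Lambdoid replicate 4 was the highest lambdoid library for Sqle, at 128 CPM. Without it 4 of the 18 were called lower, beside 991 of all 19965 genes, and the median was -0.43. Sqle, an early enzyme of the pathway, was not called without that library (adjusted p = 0.136) or without sagittal replicate 3 (adjusted p = 0.0725).

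**Figure D3:**
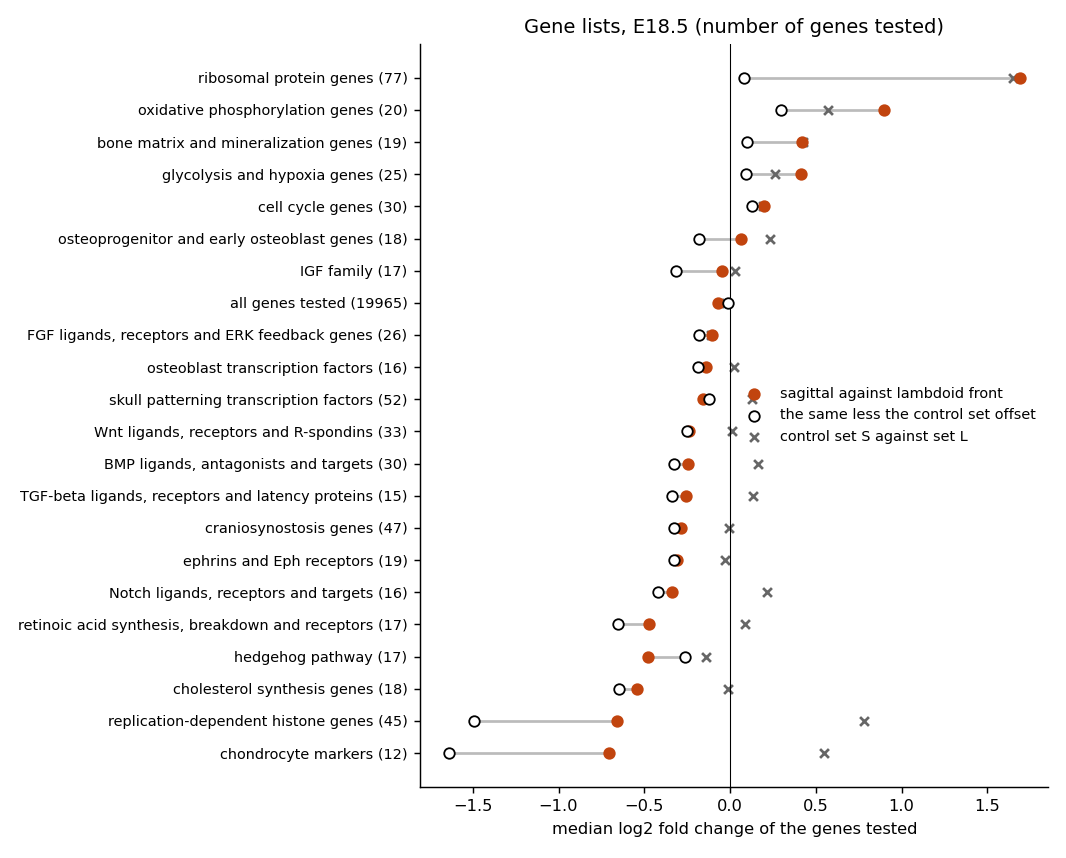
Median log2 fold change of each of 22 gene lists between sagittal and lambdoid fronts at E18.5 (filled points), the same less the control set offset (open points) and the offset itself (crosses). The ribosomal list moves from 1.69 to 0.08 when the offset is subtracted, whereas the histone list moves from -0.66 to -1.49.

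The genes described next were named by a set of criteria. These were a call between the fronts, and the same sign with a call after the offset. They also included a mean of at least 5 CPM in the higher group and no overlap between the groups. No gene met them in the fit to all 116 libraries. The 18-library fit was then used for the values after the offset, a choice made after values were seen. With it, 38 genes met the criteria, 10 higher and 28 lower at the sagittal edge. Since the criteria include no overlap between the groups, leaving out libraries could not turn the sign of their mean difference.

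The bone matrix gene Spp1, on chromosome 5 (mm10, chr5:104435118-104441050), had the largest difference of the 10 higher genes. It was at 283, 495, 573, 706 and 318 CPM in the sagittal fronts and at 79.4, 91.0, 99.4, 74.8 and 80.1 CPM in the lambdoid fronts, so that the groups lay far apart. The difference was 2.48 ± 0.60 (adjusted p = 0.00112, edgeR), 5.59-fold, and 1.81 remained after the offset (adjusted p = 0.00161 in the 18-library fit). On leaving out sagittal replicates 1 to 3 it was 2.59 (adjusted p = 0.00918). In complete sutures Spp1 was at 466 to 719 CPM in the sagittal and 1279 to 2475 CPM in the lambdoid suture, a difference of -1.53 with no overlap that did not pass the test in the fit to all libraries (adjusted p = 0.323). With the 16 controls fitted by themselves Spp1 was called lower in the sagittal suture (-1.55, adjusted p = 7.73e-27), as were 14 of the 19 bone matrix genes and 8 of the 10 osteoblast markers, against 3 and 1 in the fit to all libraries, the opposite sign to Spp1 at the front. Of all 19965 genes, that fit called 4826 (24.2%), 2264 of them lower, and the fit to all libraries called 0.841% lower. The control libraries of a suture may not come from separate embryos, so this p covers only the spread between these libraries.

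None of the other 9 higher genes was in the bone matrix list. Rbm17, a splicing factor, was at 111, 144, 103, 138 and 146 CPM at the sagittal edge and at 36.2, 46.2, 50.4, 41.6 and 38.7 CPM at the lambdoid edge (1.59 ± 0.14, adjusted p = 2.03e-16), and 0.78 remained after the offset. Stmn1, which destabilises microtubules and is abundant in dividing cells, was at 135, 108, 126, 107 and 113 CPM against 47.1, 40.1, 48.5, 36.7 and 35.0 CPM (1.51 ± 0.19, adjusted p = 4.34e-10), and 0.80 remained. For both genes the control offset was a large part of the front difference. Cct8, a subunit of the chaperonin that folds actin and tubulin, was at 137, 195, 134, 204 and 216 CPM against 79.1, 76.0, 92.7, 93.9 and 77.6 CPM, a difference of 1.08 ± 0.13 (adjusted p = 1.20e-10), of which 0.84 remained. Unc50, a Golgi membrane protein, was at 57.3, 86.3, 52.2, 69.2 and 84.4 CPM against 44.5, 46.6, 41.7, 41.1 and 39.5 CPM, and its difference of 0.71 ± 0.18 (adjusted p = 0.00157) became 0.99 after the offset (adjusted p = 0.0213), since set S was lower than set L for it. Eif3e, a subunit of a translation initiation factor, differed by 1.10, Fnta, the shared subunit of the protein prenyltransferases, by 0.87, and Sucla2, a citric acid cycle enzyme, by 0.83, with 0.76, 0.83 and 1.01 after the offset. Ydjc (1.23) and Prkra (0.90), which encodes an activator of the kinase PKR, lost their calls between the fronts without sagittal replicates 1 to 3 (adjusted p = 0.0791 and 0.102), although both kept their sign. Prkra was also not called on leaving out any 1 of 7 libraries (lambdoid replicates 1 to 4 and sagittal replicates 2, 4 and 5), with an adjusted p of 0.0519 to 0.0694.

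**Figure D4:**
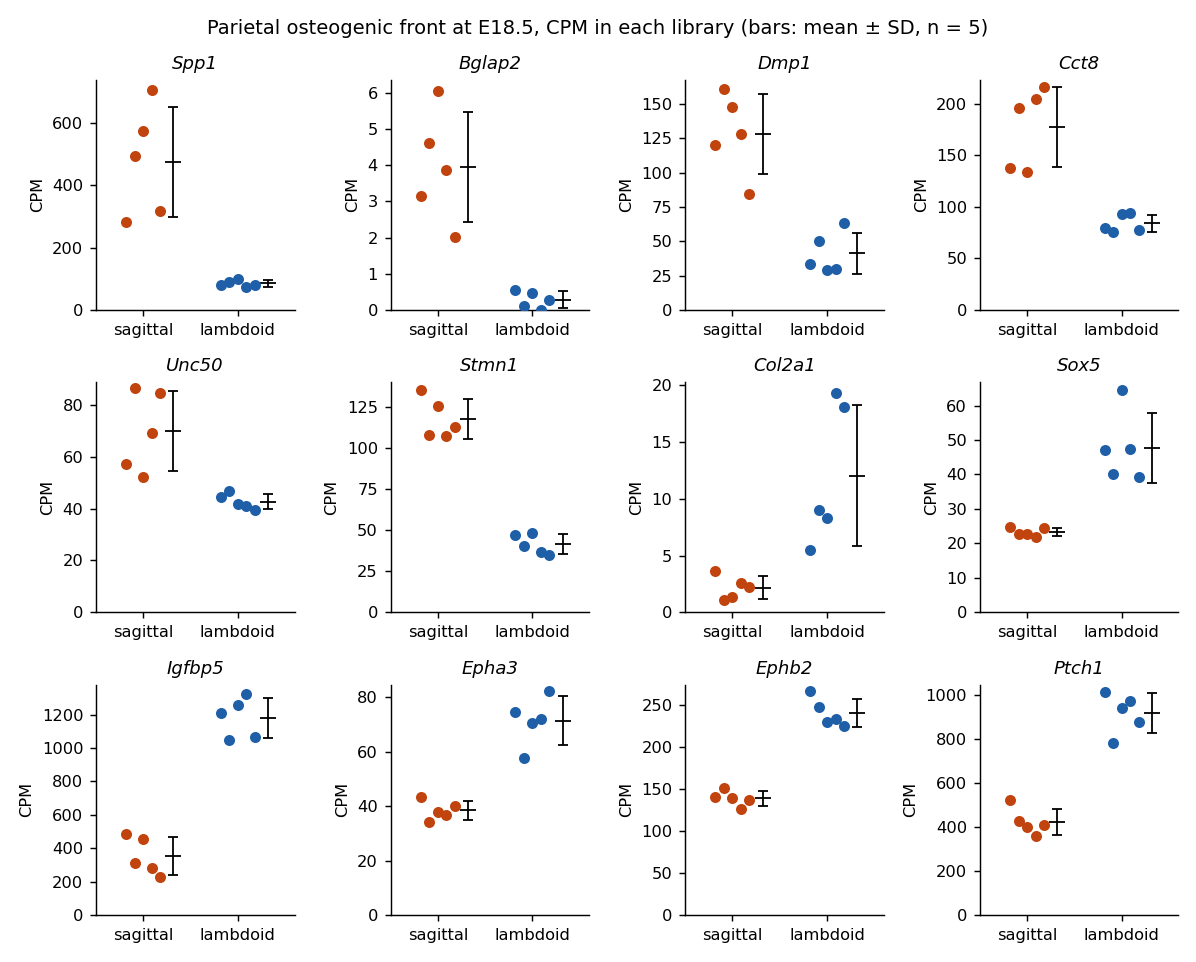
CPM of 12 genes in each of the 5 sagittal and 5 lambdoid parietal front libraries at E18.5, 1 point per library, with the mean and the SD (n = 5). For each of the 12 genes, the libraries of the 2 edges do not overlap.

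Col2a1, the main collagen of cartilage (chr15:97975602-98004695), had the lowest front difference of the 28 lower genes. It was at 3.65, 1.06, 1.36, 2.58 and 2.22 CPM in the sagittal and at 5.519, 8.998, 8.307, 19.33 and 18.06 CPM in the lambdoid fronts. It differed by -2.48 ± 0.60 (adjusted p = 0.00121), a 5.57-fold lower level at the sagittal edge, and by -3.21 after the offset (adjusted p = 0.000252 in the 18-library fit). Without sagittal replicates 1 to 3 the difference was -2.33 and the call was lost (adjusted p = 0.0733). In complete sutures it was at 470 to 772 CPM in the sagittal and at 2505 to 4313 CPM in the lambdoid suture, a difference of -2.43 ± 0.57 (adjusted p = 0.00524). The other chondrocyte markers were not called between the fronts: Acan, the large cartilage proteoglycan, differed by -0.48 (adjusted p = 0.16), Sox9, the chondrocyte transcription factor, by -0.59 (adjusted p = 0.346), and Hapln1, a link protein, by -0.07 (adjusted p = 0.897). The 12 chondrocyte markers had a median difference of -0.71 before and -1.64 after the offset. After the offset in the 18-library fit 2 of the 12 were called lower and 0 higher, beside 0.285% and 0.0851% of all genes. Without sagittal replicates 1 to 3 that fit called 3 lower, beside 1.56% of all genes.

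Sox5, a transcription factor that acts with Sox9 in cartilage (chr6:143828425-144781977), was at 24.7, 22.7, 22.6, 21.9 and 24.6 CPM at the sagittal edge and at 47.0, 40.3, 64.6, 47.3 and 39.3 CPM at the lambdoid edge. It was lower by 2.05-fold (-1.03 ± 0.20, adjusted p = 4.42e-05), with -0.91 after the offset (adjusted p = 0.0378). The sign was the same, with a call, in complete sutures (-0.80, adjusted p = 0.0347) and in fronts at E16.5 (-0.75, adjusted p = 0.00452). St3gal1, a sialyltransferase, behaved alike, at 127 to 145 CPM against 240 to 277 CPM, with -0.93 between the fronts, -0.72 after the offset (adjusted p = 0.0116), -0.79 in complete sutures and -1.30 at E16.5, all called.

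Igfbp5, a binding protein for insulin-like growth factors in bone (chr1:72857932-72874884), was at 486, 314, 457, 279 and 230 CPM in the sagittal and at 1211, 1046, 1255, 1325 and 1064 CPM in the lambdoid fronts. The groups lay far apart, with a difference of -1.74 ± 0.27 (adjusted p = 2.55e-07), 3.34-fold, and -1.20 after the offset (adjusted p = 0.0116). Sulf1, which removes sulfate groups from heparan sulfate, was at 11.31, 14.01, 12.77, 5.779 and 4.309 CPM against 27.2, 21.7, 20.9, 36.4 and 28.5 CPM (-1.48 ± 0.29, adjusted p = 3.79e-05), with -1.52 after the offset (adjusted p = 0.0349). Col14a1, a collagen that associates with fibrils, was at 34.8, 26.2, 29.6, 17.6 and 15.2 CPM against 51.6, 47.7, 67.0, 76.2 and 69.9 CPM (-1.34 ± 0.46, adjusted p = 0.0324), with -1.44 after the offset (adjusted p = 0.0103). For Sulf1 and Col14a1 sagittal replicates 4 and 5 were the lowest of all. Without sagittal replicates 1 to 3 Col14a1 differed by -1.93, with an adjusted p of 0.0629, and it was not called on leaving out any 1 of 6 libraries (lambdoid replicates 3 to 5 and sagittal replicates 2, 4 and 5), with an adjusted p of 0.0525 to 0.0986.

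Of the remaining lower genes, Ccnd3, a D-type cyclin, differed by -1.34 (adjusted p = 2.29e-06), Efhd2, a calcium-binding protein, by -1.17 (adjusted p = 0.000439), and Ptms, parathymosin, by -1.02 (adjusted p = 1.67e-05). After the offset these 3 differed by -1.19, -1.06 and -1.18. Scara5, a ferritin receptor, and Sned1, a matrix glycoprotein, were scarce, at 0.967 to 2.09 and 0.934 to 2.71 CPM in the sagittal and 2.47 to 16.2 and 5.31 to 9.22 CPM in the lambdoid fronts. Their differences of -2.24 and -1.82 lost their calls without sagittal replicates 1 to 3 (adjusted p = 0.257 and 0.125), as did that of Hist1h2bm (-1.33, adjusted p = 0.0734 without them). Scara5 was also not called without lambdoid replicate 4 (-1.60, adjusted p = 0.188) or without sagittal replicate 2, 3 or 4, Sned1 without lambdoid replicate 2 or sagittal replicate 2 or 4 (adjusted p = 0.0509 to 0.0593), and Hist1h2bm without sagittal replicate 1 or 5 (adjusted p = 0.0515 to 0.0587).

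**Figure D5:**
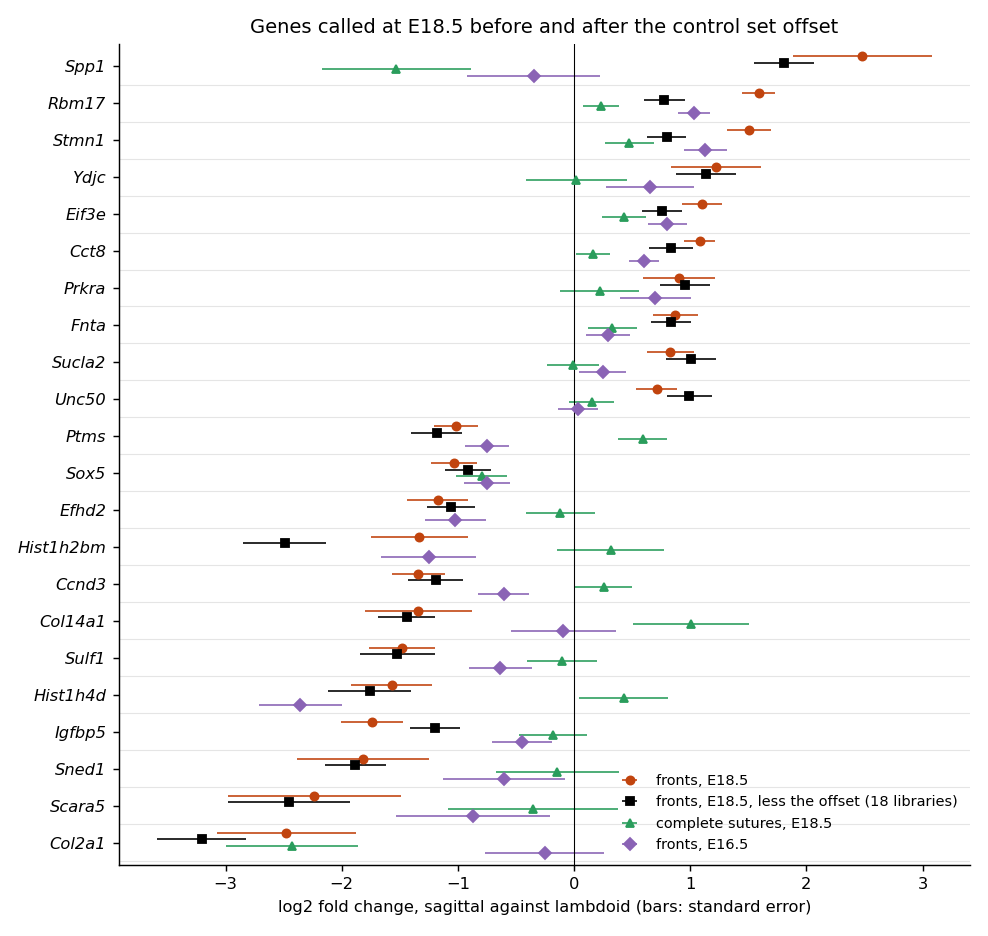
Log2 fold changes, sagittal over lambdoid, of the 22 named genes in 4 comparisons: fronts at E18.5, the same less the control set offset in the 18-library fit, complete sutures at E18.5 and fronts at E16.5, with SE as bars. Sox5 lies below 0 in all 4, whereas Spp1 is at 2.48 between the fronts at E18.5, at -1.53 in complete sutures and at -0.35 in fronts at E16.5.

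Bone matrix genes moved in both directions. Of 19 tested, 6 were called higher (Spp1, Bglap, Bglap2, Dmp1, Mgp and the phosphate transporter gene Slc20a1) and 3 lower (Phospho1, Slc20a2, also a phosphate transporter gene, and Cthrc1), beside 9.6% and 6.32% of all genes, with a median of 0.42 before and 0.10 after the offset. After the offset in the 18-library fit, Spp1, Bglap and Bglap2 were called higher and none lower, beside 0.0851% and 0.285% of all genes. Bglap was at 1.43, 3.36, 4.97, 3.20 and 3.10 CPM in the sagittal fronts and at 0.325, 0, 0.290, 0 and 0 CPM in the lambdoid fronts, and the corresponding values of Bglap2 were 3.15, 4.61, 6.06, 3.87 and 2.02 CPM against 0.541, 0.113, 0.483, 0 and 0.275 CPM. Slc20a1 was not called without lambdoid replicate 3, Slc20a2 without sagittal replicate 2 or without sagittal replicates 1 to 3 (-0.48, adjusted p = 0.145), and Cthrc1 without lambdoid replicate 1, 3 or 4 or sagittal replicate 4 or 5 (adjusted p = 0.0507 to 0.116). Osteocalcin transcripts were near the limit of detection at the lambdoid edge and low at the sagittal edge. The fitted differences were 4.60 ± 0.97 and 3.74 ± 0.74 (adjusted p = 0.000174 and 6.50e-05), with 3.51 and 2.72 after the offset (adjusted p = 0.0103 and 0.0116). These genes are near-identical neighbours on chromosome 3, so reads may be split between them and their separate values are uncertain.

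Dmp1, a matrix protein of late osteoblasts and osteocytes, was at 121, 161, 148, 128 and 84.7 CPM against 33.6, 50.5, 28.8, 30.0 and 63.1 CPM (1.64 ± 0.57, adjusted p = 0.0365). Without any 1 of 7 libraries (lambdoid replicates 1 to 4 and sagittal replicates 2 to 4) its adjusted p was 0.0506 to 0.0894, and it was not called without sagittal replicates 1 to 3 (1.37, adjusted p = 0.283) or after the offset (1.02, adjusted p = 0.0976 in the 18-library fit). Mgp, which inhibits calcification, was at 172.8 to 197.6 CPM against 29.4 to 76.4 CPM (1.65 ± 0.19), but the control offset was 1.29. Phospho1, a phosphatase that starts mineralization, was at 2.08 to 4.54 CPM against 5.95 to 12.2 CPM (-1.45 ± 0.53, adjusted p = 0.0486) and was not called without sagittal replicates 1 to 3 (adjusted p = 0.196) or on leaving out any 1 library other than lambdoid replicate 1 and sagittal replicate 2 (adjusted p = 0.0505 to 0.123). The most abundant matrix genes were not called: Ibsp, bone sialoprotein, was at 9603 to 20579 CPM against 7279 to 9615 CPM (0.71 ± 0.65, adjusted p = 0.538), and Col1a1 at 31680 to 39218 CPM against 22100 to 28024 CPM (0.42 ± 0.17, adjusted p = 0.0911), beside a control offset of 0.79.

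Runx2, the transcription factor that sets the osteoblast lineage, was lower at the sagittal edge. It was at 603, 548, 572, 590 and 584 CPM against 820, 847, 775, 936 and 888 CPM, with a difference of -0.56 ± 0.13 (adjusted p = 0.000608), and of -0.39 after the offset (adjusted p = 0.16 in the 18-library fit). Sp7, which acts after Runx2, was not called (-0.47 ± 0.27, adjusted p = 0.255), nor was Alpl, alkaline phosphatase (-0.32, adjusted p = 0.506). Beside 9.6% called higher and 6.32% lower of all genes, 2 of 16 osteoblast transcription factors were called higher and 3 lower, with a median of -0.14. Of 18 osteoprogenitor and early osteoblast genes, 4 were called higher and 3 lower, and of 9 osteocyte genes 2 higher and 2 lower. Zfp521, a zinc finger protein of osteoblast precursors, differed by -0.57 at E18.5 and by 0.71 at E16.5, both called, and the change between the ages was called as well (-1.28, adjusted p = 1.06e-06).

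The hedgehog receptor gene Ptch1, itself a target of the pathway, was lower at the sagittal edge. It was at 520, 424, 399, 358 and 406 CPM in the sagittal and at 1012, 779, 937, 973 and 874 CPM in the lambdoid fronts (-1.12 ± 0.21, adjusted p = 1.41e-05). The control offset was -0.60, and the -0.49 that remained was not called in the 18-library fit (adjusted p = 0.147). With only sagittal replicates 4 and 5 it was -0.63 and called (adjusted p = 0.0207). Gli1, a transcription factor and direct target, was at 94.3, 66.8, 80.4, 65.5 and 68.5 CPM against 119, 98.2, 112, 108 and 104 CPM. Its groups did not overlap and the difference of -0.53 ± 0.29 was not called (adjusted p = 0.227), but with the opposite offset of 0.35 subtracted it was -0.83 (adjusted p = 0.0278 in the 18-library fit). Ihh, the ligand of the front, was at 17.5 ± 0.844 CPM at the sagittal and 18.9 ± 2.88 CPM at the lambdoid edge (SD, n = 5 each, -0.11 ± 0.54, adjusted p = 0.93), and Hhip, which binds hedgehog ligands, differed by -0.37 ± 0.32 (adjusted p = 0.508). Of 17 hedgehog pathway genes tested, 5 were called lower (Ptch1, Smo, Gli3, Boc and Cdon) and 1 higher (Kif7), beside 6.32% and 9.6% of all genes, with a median of -0.48 before and -0.27 after the offset. Smo, the signal transducer, was at 119 to 269 CPM at the lambdoid edge, where replicate 4 stood alone above 152 CPM. Without it Smo differed by -0.39 (adjusted p = 0.193). Boc was not called without lambdoid replicate 2 or 5 (adjusted p = 0.0537 and 0.0751), Kif7 without lambdoid replicate 1, 3 or 4 or sagittal replicate 2 (adjusted p = 0.0549 to 0.109), and neither these 2 nor Smo without sagittal replicates 1 to 3.

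Among ephrins and Eph receptors, which govern contact between neighbouring cells at bone boundaries, 4 of 19 were called lower and 1 higher, beside 6.32% and 9.6% of all genes, with a median of -0.31 before and -0.33 after the offset. The receptor gene Epha3 (chr16:63543534-63864175) was at 43.5, 34.2, 37.9, 36.6 and 39.9 CPM in the sagittal and at 74.7, 57.7, 70.7, 72.0 and 82.2 CPM in the lambdoid fronts. Its difference of -0.90 ± 0.17 (adjusted p = 3.04e-05) was -0.98 after the offset (adjusted p = 0.00748 in the 18-library fit). In complete sutures Epha3 had the opposite sign, 0.74 ± 0.19 (adjusted p = 0.0142). The receptor gene Ephb2 (chr4:136647539-136835988) was at 141, 152, 139, 127 and 137 CPM against 268, 247, 231, 233 and 225 CPM (-0.79 ± 0.20, adjusted p = 0.00248), with -0.74 after the offset (adjusted p = 0.0116) and -0.73 at E16.5 (adjusted p = 0.007). Both receptors were lower at the sagittal edge at both ages. Ephb4 and the ligand gene Efna2 were also called lower, at -1.22 and -1.02, and Ephb3 was called higher, at 1.05. Efna2 was not called without lambdoid replicate 1 or sagittal replicate 4 or 5 (adjusted p = 0.0729 to 0.0892).

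In the IGF family, 4 of 17 genes were called lower and 2 higher, beside 6.32% and 9.6% of all genes, with a median of -0.05 before and -0.32 after the offset. The ligand gene Igf1 was at 67.2, 38.2, 43.1, 23.7 and 27.6 CPM against 80.2, 66.7, 83.4, 88.3 and 83.1 CPM, with a slight overlap (-1.01 ± 0.28, adjusted p = 0.00503). The receptor gene Igf1r differed by -0.63 and Pappa2, a protease that cleaves IGF binding proteins, by -1.23, both called. The ligand gene Igf2 was at 207, 240, 237, 158 and 131 CPM against 134, 125, 146, 123 and 132 CPM, with overlap, and was called higher at 0.56 ± 0.18 (adjusted p = 0.0201). The control offset of Igf2 was 1.48, so that after the offset it was lower at the sagittal edge, at -0.88 (adjusted p = 0.0498 in the 18-library fit). Between the fronts it was not called without sagittal replicates 1 to 3 (0.13, adjusted p = 0.838) or without sagittal replicate 2 or 3 alone (adjusted p = 0.0779 and 0.0877). Dlk1, an imprinted gene for a Notch-like protein, was at 6.456 to 17.03 CPM against 16.4 to 28.8 CPM (-1.05 ± 0.36, adjusted p = 0.0295), and at -1.58 after the offset (adjusted p = 0.0224). Between the fronts Dlk1 was not called without lambdoid replicate 1 or 3 or sagittal replicate 4 or 5 (adjusted p = 0.0603 to 0.105). Of 19 imprinted growth genes, 6 were called lower and 1 higher, beside the same shares of all genes.

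In most other signalling lists more genes were called lower than higher at the sagittal edge, beside 9.6% higher and 6.32% lower over all genes tested. Most genes of each list were not called, and in both Wnt lists the share called lower was little above that of all genes. Of 26 FGF genes 4 were called lower, among them the receptor genes Fgfr1 (-0.39) and Fgfr2 (-0.63) and Erf (-1.28), a repressor downstream of ERK, and 0 higher. Of 33 Wnt ligand, receptor and R-spondin genes 3 were lower, Wnt5a (-0.93), Fzd7 (-0.67) and Lrp6 (-0.44), and of 20 Wnt antagonists and targets 2 were lower, Lef1 (-1.10) and Znrf3 (-0.58). Lef1 was not called without sagittal replicates 1 to 3 (-0.79, adjusted p = 0.26). Of 15 TGF-beta genes 3 were lower, Tgfb2, Tgfbr1 and Ltbp1 (-0.60, -0.58 and -0.79). In the Notch list Jag1, Notch1, Notch2 and Dlk1 were lower and Hes1 higher, of 16 tested, and in the retinoic acid list Cyp26b1, Rara and Rxra were lower, of 17 tested. The BMP list was the exception, with 4 of 30 called higher (Id1, Id2, Id3 and Msx1) and 1 lower (Bmp5), but its median was -0.25, and the control offset of Id1, 1.71, exceeded its front difference of 1.39. The calls of Fgfr1, Fzd7, Lrp6, Znrf3, Tgfb2, Notch1, Cyp26b1, Id1, Id2 and Bmp5 were lost without sagittal replicates 1 to 3, in a fit of 2 against 5 fronts. All 10 kept their sign there. Fgfr1, Fzd7, Lrp6, Notch1 and Cyp26b1 had differences of -0.50, -0.66, -0.47, -1.04 and -1.05, near to or beyond those with all libraries, whereas those of Znrf3, Tgfb2, Id1, Id2 and Bmp5 were smaller, at -0.47, -0.43, 0.87, 0.21 and -0.95. Leaving out 1 library ended those of Fgfr1 (5 libraries, adjusted p up to 0.121), Lrp6 (6 libraries, up to 0.0732), Tgfb2 (4 libraries, up to 0.219), Bmp5 (8 libraries, up to 0.284), Rxra (3 libraries, up to 0.0619), Notch1 and Id2 (2 libraries each) and Rara and Cyp26b1 (sagittal replicate 5 and 4). In these 7 lists, 1 gene was called after the offset in the 18-library fit, Dlk1. In that fit without sagittal replicates 1 to 3 each list had between 1 gene (FGF) and 6 genes (6 of 17 in the retinoic acid list) called lower after the offset and 0 higher, beside 1.56% and 1.11% of all genes.

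Transcription factors that pattern the skull were called in both directions, with 7 higher and 9 lower of 52 tested, beside 9.6% and 6.32% of all genes. Their median was -0.16 before and -0.12 after the offset. Between the control sets 5 of the 52 were called higher in set S and 0 lower, beside 4.53% and 1.32% of all genes. After the offset in the 18-library fit 0 were called higher and 1 lower, beside 0.0851% and 0.285% of all genes. Alx1, a homeobox gene of craniofacial development, was at 5.87, 2.30, 2.64, 4.06 and 6.33 CPM at the sagittal edge and at 0.325, 1.35, 0.773, 0.904 and 1.83 CPM at the lambdoid edge, a difference of 2.00 ± 0.34 (adjusted p = 2.52e-06). After the offset 1.63 remained (adjusted p = 0.104 in the 18-library fit), and Alx1 was also higher in complete sagittal sutures (1.70) and in sagittal fronts at E16.5 (2.39), both called. Msx1, which acts in osteoprogenitors, was at 24.2, 18.1, 17.4, 20.5 and 20.3 CPM against 4.98, 6.41, 4.93, 7.35 and 5.87 CPM (1.77 ± 0.27, adjusted p = 2.95e-07), with a control offset of 1.03, 0.78 after the offset (adjusted p = 0.147), a difference of 1.80 in complete sutures and of 1.96 at E16.5. Twist1, mutated in Saethre-Chotzen syndrome, was higher by 1.21 between the fronts, but its control offset was 1.20 and 0.03 remained in the 18-library fit. Within sets, complete sagittal sutures were higher than complete lambdoid sutures for Twist1 by 1.12 ± 0.20 (adjusted p = 7.74e-05). En1 (1.71) and Foxc1 (1.64), regulators of calvarial bone growth, were also called higher, and Lmx1b (-1.34), Alx4 (-0.87) and Ebf1 (-0.77) lower.

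Of 47 genes of craniosynostosis, the premature fusion of sutures, 15 were called lower and 5 higher at the sagittal edge, beside 6.32% and 9.6% of all genes, with a median of -0.29 before and -0.33 after the offset. The lower genes included Fgfr1, Fgfr2, Erf, Runx2, Alx4, Ptch1, Smo, Gli3, Igf1r, Lmx1b, Tgfbr1 and Jag1, and the higher genes included Twist1 and the interleukin receptor gene Il11ra1. With only sagittal replicates 4 and 5, 11 were called lower and 3 higher, beside 2.65% and 6.78% of all genes. None of the 47 was called after the offset in the 18-library fit, in which 0.371% of all genes were, but 6 were called lower and 0 higher in it without sagittal replicates 1 to 3, beside 1.56% and 1.11% of all genes. Matrix lists outside bone had calls in both directions, beside 9.6% called higher and 6.32% called lower over all genes: of 28 collagen genes 1 was higher and 3 lower, of 26 proteoglycan and matricellular genes 1 higher and 5 lower, of 24 metalloproteinase and inhibitor genes 2 higher and 3 lower, and of 22 tendon, contractile and mechanical genes 3 higher and 2 lower. Of 23 immediate early and stress genes, 3 were called higher and 0 lower. A single Hox gene was tested and it was not called.

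The complete sutures share no library with the fronts. Within sets, in the fit to all 116 libraries, 356 genes (1.78%) were called between complete sagittal and complete lambdoid sutures, 188 higher (0.942%) and 168 lower (0.841%) in the sagittal suture. Total counts in place of TMM gave 82 higher and 279 lower, and leaving out any 1 control set gave 164 to 168 calls. Of the 356 genes, 82 were also called between the fronts, 46 with the same sign (1.45% of the front calls and 12.9% of the calls in complete sutures) and 36 with the opposite sign, 34 of these lower at the sagittal front. The count depended on the fit: with the 16 controls fitted by themselves, 4826 genes (24.2%) were called, of which 775 were called with the same sign and 316 with the opposite sign between the fronts. These calls cover only the spread between control libraries, for which the labels do not give separate embryos. The complete lambdoid sutures held 5604 to 8238 CPM of chondrocyte markers and 2179 to 2821 CPM of skeletal muscle markers, against 1229 to 1659 CPM and 21.8 to 38.4 CPM in the complete sagittal sutures. The part of these tissues in the complete-suture values was not tested. Prrx1, a mesenchymal homeobox gene, and Zfp521 were called lower at the sagittal front (-0.40 and -0.57) and higher in the complete sagittal suture (0.86 and 0.56).

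At the earlier stage, E16.5, 2712 genes (13.6%) were called between the same edges in other embryos, 1405 higher (7.04%) and 1307 lower (6.55%). With total counts in place of TMM the split at E16.5 was 1673 higher and 833 lower. Both ages called 1534 genes, 1515 with the same sign (47.7% of the E18.5 calls and 55.9% of the E16.5 calls) and 19 with the opposite sign. Of the 77 ribosomal protein genes, 74 were called higher at E16.5 as well. No complete sutures of E16.5 were analysed here, and across genes the E16.5 difference and the E18.5 control offset had a Pearson correlation of 0.407. With that offset subtracted, 40 genes were called at E16.5, 11 higher and 29 lower. Called with the same sign in fronts at both ages and in complete sutures were 36 genes, among them Alx1, Msx1, Twist1, Sox5 and St3gal1. The front calls counted here are those before the offset was subtracted. At E18.5 the control offset was nearly the whole front difference of Twist1 and a large part of that of Msx1. The change of the front difference between the ages was called for 202 genes (1.01%), 101 in each direction (0.506%). With total counts in place of TMM it was called for 54 upward and 103 downward. Hk2 was 1 of them, with no difference beyond its SE at E16.5 (0.08 ± 0.21) and 1.49 at E18.5, and the change was 1.41 ± 0.30 (adjusted p = 0.00376). Spp1 changed from -0.35 to 2.48, and the change did not pass the test (2.83, adjusted p = 0.0674).

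Each front can also be read against the SM of the same embryo, in which an offset shared by all libraries of a suture drops out. Without the embryo as a term, edgeR called 0 of 19965 genes (0%) between sagittal and lambdoid sutures in front less SM, with 686 at an unadjusted p under 0.05, DESeq2 called 9 and limma-voom 0. The embryo was added as a replicate block in a smaller fit, of the E18.5 parietal front and SM libraries of these sutures alone. There 21 genes (0.105%) were called, 8 higher (0.0401%) and 13 lower (0.0651%) in the sagittal suture. The part of the block and that of the smaller fit in these calls was not tested. Col2a1 (-2.20 ± 0.32, adjusted p = 0.00438), Col14a1 (-1.78) and Sox5 (-0.96) were among the lower genes, as between the fronts. Both comparisons use the same front libraries, so part of this agreement is built in. The mean of Sox5 was 23.3 CPM in front and 108 CPM in SM of the sagittal suture, and 47.7 and 108 CPM in those of the lambdoid suture, so that the SM levels were alike. For Col14a1 the means were 24.7 and 607 CPM in the sagittal and 62.5 and 452 CPM in the lambdoid suture. Genes of contractile cells, Acta2, Actg2 and Myl9, and the matrix gene Postn were lower as well, and for Acta2 the fronts were close (131 and 125 CPM) while the SM differed (193 and 67.5 CPM). Gli1 was higher by 1.53, with means of 75.1 CPM in front and 20.02 CPM in SM of the sagittal suture and of 108 and 76.4 CPM in the lambdoid suture, so that its mean was lower in both regions of the sagittal suture and the drop from front to SM was steeper there.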

How the data were processed

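The authors trimmed reads with cutadapt, aligned them to mm10 with STAR 2.5.3a and counted read pairs per gene without strand with featureCounts 1.6.4. The deposited values are raw counts on 55487 GENCODE genes per library, not normalized. Gene names came from GENCODE vM21, which matched 55394 IDs. RNA was amplified without molecular identifiers, so precision figures cover counting and replicate error only. Overlapping and antisense genes cannot be told apart in counts without strand.

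The fit held 116 libraries: the 100 first laser-captured libraries and the 16 complete sutures. The 19965 genes that reached 1 CPM in more than 10% of the libraries were tested, with TMM scaling. The quasi-likelihood test of edgeR 4.0.16 in R 4.3.3 was two-sided, with 1 mean per group, control set and suture as additive terms for the controls, 89 residual degrees of freedom and Benjamini-Hochberg adjustment at 0.05. Each group had 5 separate embryos. DESeq2 1.42.0 and limma 3.58.1 were alternatives, with other scalings, filters, sample sets and left-out libraries. Scripts were tested on simulated data. The embryo pairs front and SM, which share a litter label. Their residuals correlated at 0.0544 to 0.253 (sagittal) and 0.00435 to 0.135 (lambdoid), and the embryo served as a replicate block in an alternative.

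Members and lists were chosen with earlier results of these data known. Named genes were to be the 12 highest and 12 lowest by fold change among those called with the same sign between the fronts and after the offset, with a mean of at least 5 CPM in the higher group and no overlap, leaving out predicted and mitochondrial genes, with called list members and the 3 in each direction with the largest fold change not called after the offset. Since none passed in the fit of all libraries, the 18-library fit was used for the offset, a choice made after values were seen. The deposited table of log2 ratios, computed by the authors, the 18 second coronal libraries and the 4 single-cell libraries were not used. Single genes of some lists are not reported here.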

Additional observations from a re-analysis of the deposited data

Results flagged for a closer look

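Single libraries stood apart from the other 4 of their group, by Dixon's test, in 18 of 252 groups of values over 125 named genes and the total counts. Chance gives about 12.6. Lambdoid replicate 4 accounted for 8 of them. It was high for the cholesterol genes Insig1 (94.8 CPM, others 57.9 to 64.1), Lss (94.6 CPM, others 45.8 to 54.0) and Stard4 (104 CPM, others 38.7 to 48.4), for Smo (269 CPM, others 119 to 152) and for Scara5 (16.2 CPM, others 2.47 to 6.33). It was low for Erf (25.5 CPM, others 39.4 to 43.4), Id2 (12.3 CPM, others at least 22.8) and Sucla2 (13.5 CPM, others 19.3 to 21.6). Sagittal replicate 2 was high for En1 (28.6 CPM, others 13.4 to 17.3), Ifitm5 (452 CPM, others 299 to 332) and Rps29 (550 CPM, others 223 to 274). Sagittal replicate 1 was high for Lmx1b (22.8 CPM, others at most 18.1), and sagittal replicate 5 low for Sox9 (4.04 CPM, others 9.09 to 10.5). Lambdoid replicate 2 was high for Actc1 (3.37 CPM, others 0 to 0.678) and Sned1 (9.22 CPM, others 5.31 to 5.99), lambdoid replicate 3 for Igfbp4 (283 CPM, others 182.3 to 195.9), and lambdoid replicate 5 for Dcx (2.48 CPM, others 0 to 0.565) and Myt1l (0.642 CPM, others 0).

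The front difference differed between E18.5 and E16.5, by edgeR's test of the change itself, in 202 genes. Among the named genes it turned from higher to lower in the sagittal front with age in Cdon (0.23 to -0.68, a change of -0.91), Igf1 (0.43 to -1.01, -1.44), Lef1 (0.75 to -1.10, -1.86), Ltbp1 (0.16 to -0.79, -0.95), Pappa2 (0.34 to -1.23, -1.57), Thbs2 (0.16 to -0.59, -0.75) and Zfp521 (0.71 to -0.57, -1.28), all on the log2 scale. The E16.5 values of Cdon, Igf1, Lef1, Ltbp1, Pappa2 and Thbs2 were not called by themselves. The change was upward in Hk2 (0.08 to 1.49, 1.41). It was also upward in the brain genes Dcx (-3.14 to 5.20, 8.33), Fabp7 (-4.25 to 4.88, 9.13), Myt1l (-4.10 to 5.27, 9.37) and Stmn2 (0.48 to 4.17, 3.69), whose E18.5 values rest on sagittal replicates 1 to 3.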

How the results depend on the processing

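Of 114 named genes called between the fronts, 111 kept their sign in all 23 alternatives and 60 also their call. Without sagittal replicates 1 to 3 the exceptions were Dcx, Fabp7 and Myt1l, at -2.203, -2.033 and -1.855, or -2.142, -1.957 and -1.772 with sets L and S alone. The alternatives reuse the same libraries, and part of the named genes was chosen for no overlap, so kept signs are not separate support. The cause of the other changes was not tested.

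The 3177 calls between the fronts became 5303 with the 10 fronts alone, 4986 with the replicate number as a replicate block, 5473 in weighted limma-voom, 6077 with the 18 libraries, 1884 without sagittal replicates 1 to 3 (4848 with sets L and S alone), and 2475 to 3030 without 1 library. Same-numbered sagittal and lambdoid fronts share only a number: their residuals correlated at -0.0845 to 0.0411, and 1 of 5 correlated best with its own number. The control offset had 775 calls without a filter, 3257 in the 18 libraries, 6450 with the 16 controls alone and 5692 in weighted limma-voom. After the offset the count was 13 with DESeq2, 3 with limma-voom, 1 without a filter, 74 in the 18 libraries, 51 with litter labels that begin alike, 317 in weighted limma-voom, 2 without sagittal replicates 1 to 3 (532 in the 18 libraries) and 0 to 2 without 1 library (2 without lambdoid replicate 1, 1 without sagittal replicate 1 or 3). Complete sutures had 4826 calls with the 16 controls alone, 29 with sets L and S only and 164 to 168 without 1 set. At E16.5, 40 were called less the offset, and 2071 to 2726 without 1 library. The change between ages had 98 calls in limma-voom. Front less SM had 9 with DESeq2, 1 without sagittal replicates 1 to 3 and 0 without 1 library. It had 21 with the embryo as replicate block in the sagittal and lambdoid front and SM libraries alone.

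With total counts in place of TMM the median over all genes shifted to -0.139 for the offset, -0.144 for complete sutures and -0.112 for the change between ages. The splits became 643 higher and 537 lower for the offset (904 and 264 with TMM), 82 and 279 for complete sutures (188 and 168), and with median-ratio factors 149 and 200 for these. The lambdoid fronts, with 8706271 to 10439953 counts, limit genes of a few CPM.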
